A study of Mus musculus with 2 samples.

Results

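Cluster 8 of the class that the authors named modEC is a group of aortic cells with high transcript levels of extracellular matrix genes. A cell belonged to it when the deposited metadata gave it the class modEC and the cluster number 8, and each barcode was counted once. By this rule the cluster held 329 of 7917 cells, 182 of them in the Apoe-/- library and 147 in the EC-iDKO/Apoe-/- library. The working name fibromyocyte-like matrix cells comes from 6 marker genes, Slurp1, Ptn, Lum, Dcn, Timp1 and Lcn2. Another 3 cells that carried the number 8 were placed by the authors in the fibroblast class, 2 in the Apoe-/- and 1 in the EC-iDKO/Apoe-/- library, and were not members.

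Fibromyocytes are vascular smooth muscle cells that lose contractile proteins in atherosclerotic lesions and take on the traits of fibroblasts, among them secretion of proteoglycans, collagens and osteopontin. Small leucine-rich proteoglycans such as decorin and lumican bind collagen fibrils and set their diameter and spacing. Matrix turnover in the artery wall depends on the balance of metalloproteinases and their tissue inhibitors, and lipocalin 2, complement proteins and chemokines are released by stromal cells under inflammatory stimulation.

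Both libraries came from digested aortas of mice that lacked Apoe and had been fed a western diet for 12 weeks, and mice without Apoe develop atherosclerosis on such a diet. The controls were Apoe-/- (ApoE in the plots) and the other group was EC-iDKO/Apoe-/- (DKO in the plots), in which, from knowledge of the line, the epsin genes Epn1 and Epn2 are deleted inducibly in endothelial cells. The sources used here do not state the Cre driver, the sex or age of the mice, how many were pooled or when the libraries were made. The protocol names CD31 microbeads and the cell type label reads all cells, so the share of any cell type may depend on the beads.

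With 1 library for each genotype there was no replicate and no test was possible. All comparisons are descriptions of these libraries, and cells were not treated as replicates. Intervals are 95% intervals for counting error only. Levels are unique molecular identifiers (UMIs, one for each captured transcript) added up within each population and library and divided by their total (CPM, counts per 1000000). A gene was counted as higher or lower when its CPM ratio reached 2-fold, among genes with a mean of at least 200 CPM over the populations compared. The clusters were drawn from the same transcripts, so a difference between cluster 8 and other cells describes the cluster and does not test it.

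The libraries differed in depth. Over all cells the median was 3769.5 UMIs in the Apoe-/- and 769 in the EC-iDKO/Apoe-/- library. In cluster 8 the medians were 4712.5 and 821 UMIs, with ranges from 549 to 46497 and from 495 to 15078, and the median numbers of genes were 1879 and 535. The cluster summed to 1520289 UMIs in the Apoe-/- and 203822 in the EC-iDKO/Apoe-/- library, so a count of 0 allows up to 1.97 and 14.7 CPM. The 10 deepest cells held 21.6% and 31.7% of these UMIs. Median mitochondrial shares were 3.92% and 3.03%. Of the barcode sequences, 5 occurred in both libraries, none of them in cluster 8.

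Cluster 8 made up 7.50% of the Apoe-/- cells (6.48% to 8.62%, exact Clopper-Pearson interval) and 2.68% of the EC-iDKO/Apoe-/- cells (2.27% to 3.14%). Within the modEC class it made up 36.8% of 495 cells (32.5% to 41.2%) and 25.1% of 586 cells (21.6% to 28.8%). Among cells that reached 1000 UMIs and had a mitochondrial share under 10%, cluster 8 had shares of 7.94% and 2.82%. The share was lower in the EC-iDKO/Apoe-/- library by each count, and genotype, library and bead capture cannot be told apart here. In the authors' coarser clusterings the members stayed with cluster 10 and, at the coarsest settings, with cluster 7, both of the modEC class. At the finest resolution, 1, they separated from cluster 10, with 327 of 329 members in a cluster that held 12 of the 254 cluster 10 cells and 1 of 5864 smooth muscle cells. No cell of the endothelial population compared here fell into the home cluster of cluster 8 at any deposited resolution.

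The proteoglycans decorin and lumican were the most widely detected of the 6 markers. Dcn was at 8804 CPM in Apoe-/- and 3626 CPM in EC-iDKO/Apoe-/- cells of cluster 8, against 108 and 19.5 CPM in smooth muscle cells (SMC), 1172 and 95.4 CPM in endothelial cells (EC), and 7267 and 421 CPM in cluster 10. Lum was at 6166 and 1408 CPM in cluster 8, against 89.1 and 15.5 CPM in SMC, 655 and 19.9 CPM in EC, and 2784 and 346 CPM in cluster 10. Cluster 8 was the highest of these 4 populations for both genes in each library. Per cell, after each was thinned to 500 UMIs, at least 1 UMI of Lum or Dcn was found in 176 of 182 Apoe-/- cells (96.7%, 93% to 98.8%) and in 121 of 146 EC-iDKO/Apoe-/- cells (82.9%, 75.8% to 88.6%), with 1 shallower cell left out. The same share was 10% and 2.4% in SMC.

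The genes of the pair lie side by side on the forward strand of mouse chromosome 10, Dcn at chr10:97479609-97518143 and Lum at chr10:97565128-97572703 (GRCm38, GENCODE M21), with 47.0 kb between them. The other markers are on 4 further chromosomes: Lcn2 at chr2:32384633-32388252 on the reverse strand, Ptn at chr6:36714929-36810220 on the reverse strand, Slurp1 at chr15:74724318-74728034 on the reverse strand and Timp1 at chrX:20870166-20874735 on the forward strand.

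Timp1, a tissue inhibitor of metalloproteinases, was at 1287 and 2144 CPM in cluster 8 of the Apoe-/- and EC-iDKO/Apoe-/- libraries, against 21.1 and 41.9 CPM in SMC, 33.7 and 119 CPM in EC and 228 and 496 CPM in cluster 10. Lcn2, which encodes the iron-siderophore carrier lipocalin 2, was at 784 and 1158 CPM, against 11.3 and 12.0 CPM in SMC, 33.7 and 35.8 CPM in EC and 253 and 256 CPM in cluster 10. Both were highest in cluster 8 among these populations. At 500 UMIs per cell, Timp1 was found in 22% and 43.8% of cluster 8 cells and Lcn2 in 24.7% and 32.2%. Before thinning the shares were 71.4% and 50.3% for Timp1 and 62.1% and 44.2% for Lcn2, so the order between libraries turned with depth. A macrophage cluster, number 13 of the immune class (median depths 4565 and 696 UMIs), was used for comparison. UMIs of these genes there may be free RNA or may be made by macrophages, which was not tested. There Timp1 was found in 2.78% and 1.89% of thinned cells, Lcn2 in 1.39% and 9.43%, Lum in 9.03% and 1.89% and Dcn in 13.9% and 1.89%, all below cluster 8. The Lcn2 share of EC-iDKO/Apoe-/- macrophages was above that of SMC (0.783%) and EC (1.75%) of the same library.

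The remaining markers were carried by few cells. Slurp1, a secreted Ly6-family protein, had 204 UMIs (134 CPM) in 16 Apoe-/- cells of cluster 8, 109 of them in 1 cell, and none in the EC-iDKO/Apoe-/- cells. Ptn, the heparin-binding growth factor pleiotrophin, had 211 UMIs (139 CPM) in 22 Apoe-/- cells and 5 UMIs (24.5 CPM) in 2 EC-iDKO/Apoe-/- cells. Without its top cell, Slurp1 stood at 63.7 CPM and Ptn at 95 CPM in the Apoe-/- library. Only 6 cells held both transcripts. The Slurp1-positive cells had a median of 16139 UMIs, against 4200 in the other Apoe-/- members. After thinning to 500 UMIs, Slurp1 was seen in 1.65% of Apoe-/- cells, so its absence in the shallower EC-iDKO/Apoe-/- cells was not interpretable per cell. The working name thus rests on Lum, Dcn, Timp1 and Lcn2 in both libraries, and on Slurp1 and Ptn in a minority of Apoe-/- cells.

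**Figure D1:**
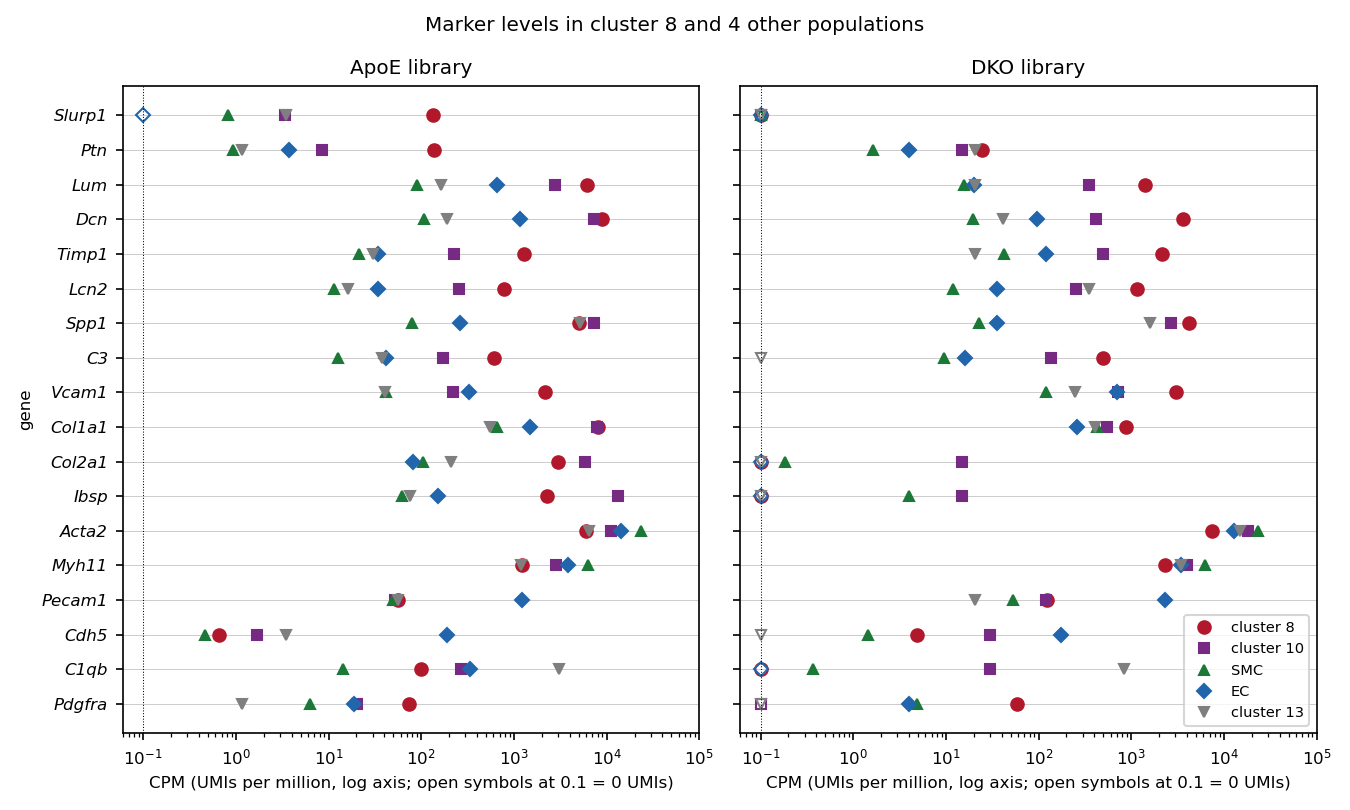
Transcript levels (CPM, log axis) of 18 genes in cluster 8, smooth muscle cells, endothelial cells, cluster 10 and the macrophage cluster, 1 point for each population and library; open symbols stand for 0 UMIs. Dcn, Lum, Timp1 and Lcn2 were higher in cluster 8 than in smooth muscle and endothelial cells of the same library, and Slurp1 had no UMI in cluster 8 of the EC-iDKO/Apoe-/- library.

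RefSeq promoter windows of GRCm38.p6, the 250 bases before the RefSeq start, were available for 3 of the 6 markers (Timp1, Lcn2 and Ptn). They were searched on both strands for 4 motifs: AP-1 (TGANTCA), a kappaB site (GGG and TTTCC parted by any 2 bases), the heat shock element (GAANNTTC) and the CArG box by its name. None of these letters occurred in the 3 windows. Over all 27025 promoter windows the motifs were present in 6.85%, 1.41%, 6.79% and 1.41%. The windows of Lcn2 (chr2:32387740-32387989, reverse strand) and Timp1 (chrX:20869916-20870165, forward strand) are shown 5′ to 3′ because these markers were high in both libraries; with no match there are no capitals. RefSeq and GENCODE starts differ for some genes: that of Lcn2 in RefSeq lies downstream of the GENCODE start, so its window falls inside the gene as placed above.
Lcn2: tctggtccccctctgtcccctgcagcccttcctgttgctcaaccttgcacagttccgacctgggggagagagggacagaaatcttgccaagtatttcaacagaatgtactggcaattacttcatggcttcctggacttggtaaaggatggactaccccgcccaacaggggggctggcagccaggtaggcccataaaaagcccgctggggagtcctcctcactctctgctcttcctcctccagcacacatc
Timp1: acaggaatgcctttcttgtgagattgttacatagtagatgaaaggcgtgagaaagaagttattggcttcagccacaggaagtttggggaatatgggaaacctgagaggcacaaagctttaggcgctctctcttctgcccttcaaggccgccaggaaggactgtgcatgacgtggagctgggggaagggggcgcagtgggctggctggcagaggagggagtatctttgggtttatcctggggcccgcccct

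Against smooth muscle cells, cluster 8 combined high matrix and inflammatory transcripts with low contractile ones. In the Apoe-/- library 70 of 701 genes (9.99%) were higher and 89 (12.7%) lower in cluster 8, 22.7% in all. In the EC-iDKO/Apoe-/- library 44 of 721 (6.1%) were higher and 54 (7.49%) lower, 13.6% in all. Among 620 genes that could be read in both libraries, 29 (4.68%) were higher and 44 (7.1%) lower in both. The ratios that follow are cluster 8 over SMC, first in Apoe-/- and then in EC-iDKO/Apoe-/- cells. They were 81.3 and 186 for Dcn, 69.2 and 90.8 for Lum, 69.2 and 96.2 for Lcn2 and 60.9 and 51.1 for Timp1.

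Spp1, which encodes the matricellular protein osteopontin, was at 5052 and 4239 CPM in cluster 8 and at 79.0 and 23.0 CPM in SMC, ratios of 63.9 and 184. A single EC-iDKO/Apoe-/- cell held 28.6% of its UMIs, and the macrophage cluster also held 5203 and 1577 CPM. Vcam1, an adhesion molecule for leukocytes, was at 2189 and 3012 CPM, against 42.2 and 120.4 CPM in SMC. C3, the central complement component, was at 608 and 496 CPM, against 12.6 and 9.48 CPM. Thbs1 (thrombospondin 1), Sfrp2 (a secreted Wnt modulator) and Ltbp2 (a latent TGF-beta binding protein of microfibrils) were 21.7-fold and 11.8-fold, 14.4-fold and 9.87-fold, and 12.4-fold and 7.17-fold higher. Cytl1, a secreted factor known from cartilage, was at 849 and 486 CPM against 33.7 and 25.7 CPM in SMC, but its levels in EC (1817 and 3449 CPM) were above those of cluster 8. The chondrocyte list, which holds Cytl1, was higher than in SMC for 9 of 9 and 4 of 5 measured members. Its median log2 ratios were 4.65 and 2.21, and 10.4% and 15.1% of all genes measured were higher.

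The broader fibromyocyte list of 11 genes, chosen as the other lists were with earlier results of these data known, was higher for 11 of 11 members in the Apoe-/- library and for 9 of 11 in the EC-iDKO/Apoe-/- library. Its median log2 ratio was 5.70 and 4.65, beside -0.05 and 0.09 for all genes measured with at least 20 UMIs. Of these, 1216 of 11641 and 1571 of 10434 were higher. Lum, Dcn and Timp1 of the list are also markers behind the working name. Against cluster 10, 5 of 11 members were higher in each library and none lower, with medians of 0.60 and 0.81. Of all genes measured, 8.01% and 10.3% were higher there, so much of the list was shared with cluster 10. Ly6a, the Sca-1 surface protein, stood at 247 and 186 CPM in cluster 8 and 1.40 and 7.11 CPM in SMC. Tnfrsf11b, which encodes osteoprotegerin, a decoy receptor that restrains bone resorption, stood at 564 and 432 CPM against 24.9 and 78.6 CPM. Of the adventitial fibroblast markers, 6 of 8 measured in the Apoe-/- and 6 of 6 measured in the EC-iDKO/Apoe-/- library were also higher than in SMC. Pdgfra, the receptor for platelet-derived growth factor that marks fibroblasts, was at 73.7 and 58.9 CPM against 6.31 and 4.92 CPM, and Pi16 and Dpt were at 25 and 49.1 CPM and at 37.5 and 39.2 CPM. All 10 adventitial markers had UMIs in both libraries, with summed levels of 1222 and 2350 CPM. Whether the cells came from muscle, fibroblast or endothelium was not tested.

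Chemokine genes were higher in cluster 8 than in SMC for 9 of 9 measured members in the Apoe-/- and 5 of 5 in the EC-iDKO/Apoe-/- library, with a median log2 ratio of 3.36 in each. Cxcl1, a neutrophil attractant, was at 329 and 437 CPM against 22.5 and 19.3 CPM. Cxcl12, which retains CXCR4-bearing cells, was at 472 and 294 CPM against 58.6 and 44.3 CPM, and Cx3cl1, the membrane-bound chemokine fractalkine, at 118 and 113 CPM against 7.47 and 11.7 CPM. Acute-phase and complement genes were higher for 11 of 12 and 6 of 8 measured members, with medians of 4.88 and 3.13. Cxcl1 was also high in the macrophage cluster, at 684 and 512 CPM, whereas C3 stood there at 38.2 and 0 CPM and Cxcl12 at 22.0 and 0 CPM. Summed macrophage markers in cluster 8 were 422 CPM in the Apoe-/- library and 19.6 CPM in the EC-iDKO/Apoe-/- library, where 8 of 11 were at 0, against 17051 and 4896 CPM in the macrophage cluster.

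Matrix lists were less uniform across libraries. Fibrillar collagen genes were higher than in SMC for 8 of 8 members in Apoe-/- cells (median log2 ratio 3.15) and for 3 of 5 measured members in EC-iDKO/Apoe-/- cells (1.03). The small leucine-rich proteoglycans were higher for 6 of 9 and 2 of 7. Ogn (osteoglycin), the member that was lower, stood at 312 and 496 CPM in cluster 8 and 978 and 1239.8 CPM in SMC. The elastic fibre list was higher for 7 of 13 and 4 of 11 members, among them Fbn1 (fibrillin 1) at 409.8 and 412 CPM against 162 and 180.0 CPM. Mgp, matrix Gla protein, an inhibitor of vascular calcification, reached 35409 and 36218 CPM in cluster 8, against 7410.4 and 11178 CPM in SMC, ratios of 4.78 and 3.24.

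Contractile genes were lower than in SMC for 9 of 9 members in the Apoe-/- library and for 8 of 9 in the EC-iDKO/Apoe-/- library, with medians of -1.95 and -1.43. Of all genes measured, 9.78% and 8.93% were lower. Acta2, smooth muscle actin, was at 6046 and 7418 CPM against 23393 and 23229 CPM. Myh11, the smooth muscle myosin heavy chain, was at 1230.0 and 2301 CPM against 6250.0 and 6212 CPM. Cnn1 (calponin), Myl9 (myosin light chain), Mylk4 (a myosin light chain kinase family member) and Lmod1 (leiomodin) were 4.39-fold and 3.55-fold, 3.88-fold and 3.41-fold, 5.68-fold and 3.74-fold, and 3.51-fold and 2.78-fold lower. Sost, which encodes the Wnt inhibitor sclerostin, and Rgs5, a regulator of G protein signalling of mural cells, were 4.74-fold and 3.39-fold and 4.00-fold and 3.33-fold lower.

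Contractile transcripts were lower in cluster 8 than in SMC but were also found in macrophages, which should lack them. The summed contractile list stood at 12392 and 18030 CPM in cluster 8 and at 12216 and 34967 CPM in the macrophage cluster, against 48311 and 50502 CPM in SMC. Cluster 8 was thus close to macrophages in the Apoe-/- library and well below them in the EC-iDKO/Apoe-/- library, so the macrophage cluster gives no usable level of free RNA for these genes in the latter. At 500 UMIs per cell, Myh11 was found in 47.8% and 64.4% of cluster 8 cells and in 46.5% and 75.5% of macrophages. Acta2 was found in 83% and 91.8% against 76.4% and 94.3%, and Tagln in 72% and 91.8% against 57.6% and 98.1%. All 3 shares were below those of macrophages in the EC-iDKO/Apoe-/- library, and in the Apoe-/- library they were similar or, for Tagln, higher. Cells with both a proteoglycan and a contractile transcript made up 90.1% and 79.5% of cluster 8 at that depth, a share that free RNA can set. These counts do not separate contractile transcripts made by the members from free RNA, and the fibromyocyte name rests here on the matrix and inflammatory genes.

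**Figure D2:**
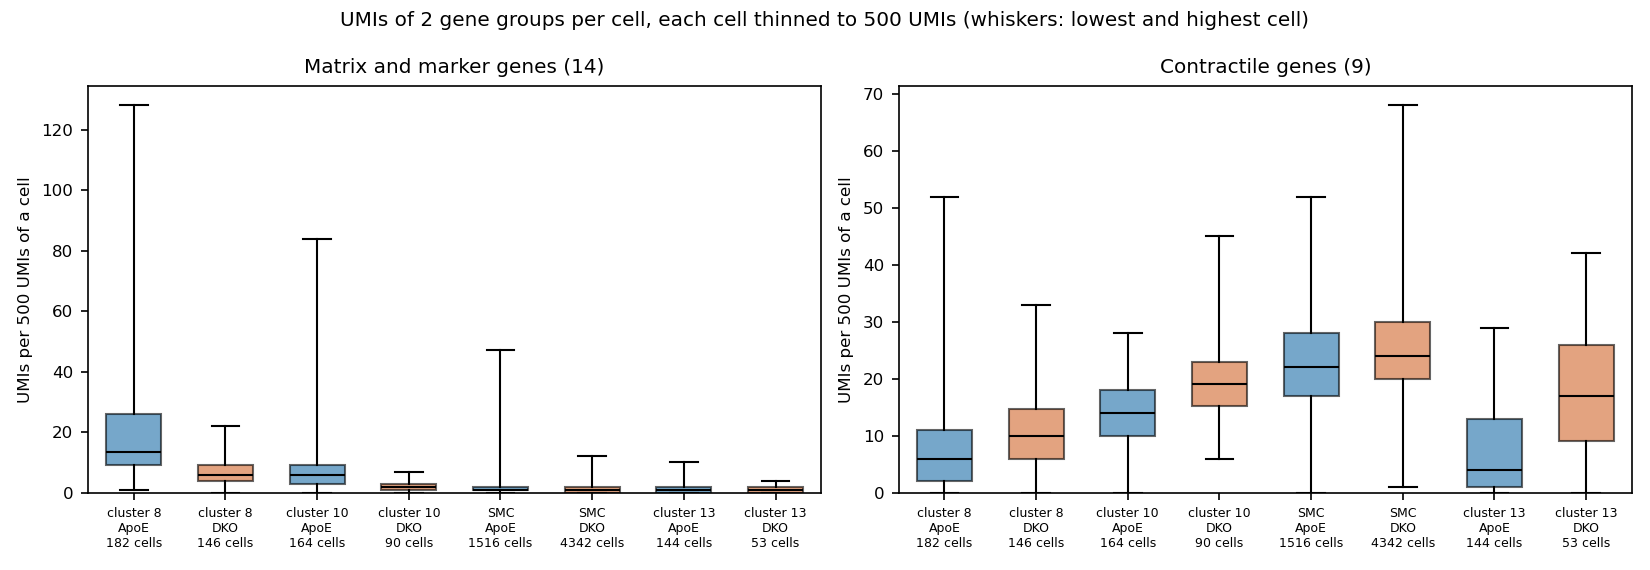
UMIs of 14 matrix and marker genes (left) and 9 contractile genes (right) per cell thinned to 500 UMIs, for cluster 8, cluster 10, smooth muscle cells and the macrophage cluster of each library; boxes span the quartiles, lines mark medians and whiskers reach the lowest and highest cell. The matrix median of cluster 8 was 13.5 UMIs in Apoe-/- and 6 in EC-iDKO/Apoe-/- cells against 1 in smooth muscle cells and macrophages, and the contractile median was 6 and 10 against 4 and 17 in macrophages.

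Although the authors' class name refers to endothelium, defining endothelial transcripts were near 0 in cluster 8. Cdh5, which encodes VE-cadherin, had 1 UMI in each library, and Tie1 and Kdr had none. A UMI of Cdh5, Kdr, Tie1 or Tek was present in 3 of 182 and 2 of 147 cells. The 12 endothelial markers summed to 183 and 260 CPM in cluster 8 and to 2566 and 4534 CPM in EC. Pecam1, which encodes CD31, the target of the beads, was at 56.6 and 123 CPM in cluster 8, 49.0 and 53.4 CPM in SMC and 1225 and 2285 CPM in EC.

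Compared with EC, 60 of 719 genes (8.34%) were higher and 56 (7.79%) lower in cluster 8 of the Apoe-/- library, 16.1% in all. In the EC-iDKO/Apoe-/- library 44 of 733 (6%) were higher and 31 (4.23%) lower, 10.2% in all. Of 616 genes read in both, 31 (5.03%) were higher and 13 (2.11%) lower in both. The highest by the smaller of the ratios were Lcn2 (23.3 and 32.4), Spp1 (19.3 and 119), Timp1 (38.2 and 18.0) and C3 (14.8 and 31.2). The lowest were Pecam1, 21.7-fold and 18.6-fold lower, Ptprb, the vascular endothelial phosphatase, 52.5-fold and 14.6-fold lower, and Heg1, a junctional receptor, 11.9-fold and 12.9-fold lower. The endothelial list was lower for 9 of 11 and 10 of 11 measured members, beside 9.97% and 8.47% of all genes measured. The Apoe-/- EC also held transcripts of other cell types. Their macrophage markers summed to 2352 CPM, against 19.9 CPM in EC-iDKO/Apoe-/- EC. At 500 UMIs per cell, Lyz2 was found in 49% and 0% of EC and Lum in 33.3% and 0%. None of the 12 endothelial markers was found in 52.1% and 21.3%. Ratios over Apoe-/- EC therefore use cells with a mixed signal, and its source was not tested.

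Cluster 10, the modEC cluster nearest to cluster 8 in the deposited clusterings, had a higher summed level of cartilage transcripts in the Apoe-/- library. Here 32 of 675 genes (4.74%) were higher and 22 (3.26%) lower in cluster 8 of the Apoe-/- library, 8% in all. In the EC-iDKO/Apoe-/- library 34 of 724 (4.7%) were higher and 29 (4.01%) lower, 8.7% in all. In both libraries 12 of 577 (2.08%) were higher and 1 (0.173%), Sost, was lower. The 12 included Timp1 (ratios 5.65 and 4.32), Vcam1 (10.1 and 4.17), C3 (3.57 and 3.66), Lcn2 (3.10 and 4.53), Thbs1 (10.6 and 2.97), Sfrp2 (2.76 and 3.20), S100a4 (4.45 and 2.70), Col15a1 (2.35 and 3.26), S100a10 (2.25 and 2.75), Lum (2.22 and 4.07) and Sulf1 (2.38 and 2.05). For C3 the smaller of the ratios turned below 1 with cells thinned to 1000 UMIs (log2 ratio -0.24). Dcn was 1.21-fold and 8.61-fold higher in cluster 8.

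The chondrocyte list was lower in cluster 8 than in cluster 10 for 6 of 9 members in the Apoe-/- library, with a median log2 ratio of -1.56. Its summed level was 8212 CPM in cluster 8 and 30378 CPM in cluster 10 of that library, and 721 and 421 CPM in the EC-iDKO/Apoe-/- library. Ibsp, a mineral-binding sialoprotein of bone, was at 2284 CPM in Apoe-/- cluster 8 and 13259 CPM in cluster 10. Col2a1, the main cartilage collagen, was at 2992 and 5901 CPM, and Sparc, a collagen-binding glycoprotein also called osteonectin, at 14524 and 38343 CPM. The 10 deepest of the 164 Apoe-/- cluster 10 cells held 39.6% of their summed UMIs. At 500 UMIs per cell, the chondrocyte median was 1 UMI in Apoe-/- cluster 8 and 1.5 in cluster 10. Col2a1 was then found in 20.9% (15.2% to 27.5%) and 26.8% (20.2% to 34.3%) of cells and Ibsp in 25.3% and 48.8%. Sparc was found in 95.1% and 90.9%.

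Between genotypes, most fibrillar collagen and chondrocyte genes and 5 of 11 heat shock genes were lower in cluster 8 of the EC-iDKO/Apoe-/- library. Of 716 genes, 74 (10.3%) passed 2-fold, 31 (4.33%) higher and 43 (6.01%) lower in EC-iDKO/Apoe-/- cells. After each ratio was centred on the median of the genes with a mean of at least 200 CPM, the split was 23 higher and 53 lower. In SMC, measured the same way, 37 of 712 genes (5.2%) passed, 16 (2.25%) higher and 21 (2.95%) lower. In the EC-iDKO/Apoe-/- library, SMC summed to 5483286 UMIs over 4348 cells, against 203822 UMIs over 147 cells in cluster 8. The shares of genes past 2-fold were thus not read at equal depth. Of the 43 lower genes, 17 were lower by 2-fold in SMC too and none was higher. Of the 31 higher genes, 11 were higher by 2-fold in SMC too and 1, Ccl5, was lower there.

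Of the 6 markers Slurp1, Ptn, Lum and Dcn were lower and none was higher by 2-fold, with a median log2 ratio of -1.71, which was -0.043 over the 4 members still measured at 500 UMIs per cell. The fibrillar collagens were lower in most members. Col1a1, a chain of type I collagen, was at 8127 CPM in the Apoe-/- and 878 CPM in the EC-iDKO/Apoe-/- library, 9.25-fold lower (7.98 to 10.8), against 653 and 430.0 CPM in SMC. Col1a2 was at 6169 and 1423 CPM and Col3a1, type III collagen, at 4724 and 1045 CPM. Col5a2, a type V chain that nucleates fibrils, was at 1184 and 407 CPM, and Col5a1 stayed within 2-fold at 357 and 196 CPM. Of 8 measured members 6 were lower and none higher, with a median log2 ratio of -2.14, beside 0.06 for all 7898 genes measured, of which 656 (8.31%) were higher and 854 (10.8%) lower. In SMC 1 of 6 was lower and the median was -0.54. The summed list went from 23638 CPM in Apoe-/- to 3969 CPM in EC-iDKO/Apoe-/- cells of cluster 8, from 22807 to 2452 CPM in cluster 10, from 4337 to 1347 CPM in EC and from 2918 to 1971 CPM in SMC, so the level was lower in each of these populations. At 500 UMIs per cell, Col1a1 was found in 80.2% of Apoe-/- and 25.3% (18.5% to 33.2%) of EC-iDKO/Apoe-/- members, and in 25% and 20.8% (10.8% to 34.1%) of macrophages, so that the EC-iDKO/Apoe-/- share was close to that of macrophages.

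Genes that process or bind collagen showed lower values in part. Sparc was at 14524 CPM in Apoe-/- and 2841 CPM in EC-iDKO/Apoe-/- cells, 5.11-fold lower (4.71 to 5.56), against 3148 and 2261 CPM in SMC. Serpinh1, the collagen chaperone HSP47, was at 1131 and 481 CPM, and Pcolce, an enhancer of procollagen cleavage, at 241 and 73.6 CPM. Col6a2, a chain of the microfibrillar type VI collagen, was at 791 and 172 CPM. Of 16 members of the collagen processing list 7 were lower and none higher (median -0.87), against 1 of 16 lower in SMC (median -0.28).

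Among the small leucine-rich proteoglycans 6 of 9 were lower and none higher (median -1.19). Lum was 4.38-fold lower (3.89 to 4.94) and Dcn 2.43-fold lower (2.25 to 2.62). With each cell thinned to 500 UMIs, the log2 ratio was -1.75 for Lum and -0.84 for Dcn, so Dcn no longer passed 2-fold. Fmod, fibromodulin, was at 358 CPM in Apoe-/- and 19.6 CPM in EC-iDKO/Apoe-/- cells. Bgn (biglycan), at 8556 and 5956 CPM, and Prelp, at 526 and 378 CPM, remained within 2-fold, as did Ogn. In SMC the list had 3 of 9 lower and a median of -0.13, and Dcn and Lum were 5.55-fold and 5.75-fold lower there from a low level.

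Matricellular genes were lower for 9 of 14 members, with a median of -1.29 against -0.02 in SMC. Fn1, fibronectin, was at 7274 and 2895 CPM in cluster 8 and at 1777 and 1764 CPM in SMC. Thbs1 was at 1039 and 402 CPM, Tnc (tenascin C) at 213 and 73.6 CPM and Mdk (midkine) at 88.8 and 14.7 CPM. In summed levels Spp1, Ccn2 (2424 and 1972 CPM) and Mgp remained within 2-fold, and Ccn3, a growth-restraining member of the CCN family, was higher at 245 and 711 CPM. Per cell thinned to 500 UMIs, however, the Mgp median was 8 UMIs in Apoe-/- and 17 in EC-iDKO/Apoe-/- members. Basement membrane and elastic fibre lists had no lower member: 1 of 12 was higher in the former, Lama2 (a laminin chain) at 42.1 and 167 CPM, and 0 of 13 passed in either direction in the latter. Medians of these lists were 0.36 and -0.02.

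Matrix proteases were lower for 6 of 15 members and higher for none (median -0.25), among them the gelatinase Mmp2 at 426 and 108 CPM and the stromelysin Mmp3 at 157 and 29.4 CPM. Of the inhibitors, Timp1 was 1.67-fold higher (1.50 to 1.85), and its log2 ratio was 1.53 after thinning to 500 UMIs per cell against 0.74 before. Timp2 was at 1145 and 1104 CPM and Timp3, which is bound to the matrix, at 3683 and 1604 CPM, 2.30-fold lower (2.05 to 2.57). The inhibitor list had 1 higher member of 9, Timp4 at 13.8 and 44.2 CPM, and 1 lower, Timp3.

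Most chondrocyte genes were lower in the EC-iDKO/Apoe-/- members, and 4 of 9 were at 0 UMIs there. The summed list stood at 8212 CPM in the Apoe-/- and 721 CPM in the EC-iDKO/Apoe-/- library, of which Cytl1 gave 849 and 486 CPM and stayed within 2-fold. Col2a1 was at 2992 CPM in 85 Apoe-/- cells and at 0 UMIs in EC-iDKO/Apoe-/- cells, at least 203-fold lower against a floor of 3 UMIs over the cluster. Ibsp was at 2284 CPM in 96 Apoe-/- cells and at 0, at least 155-fold lower. Chil1, a secreted chitinase-like protein, was at 422 CPM in 46 Apoe-/- cells, 40.7% of its UMIs in 1 cell, and at 0, at least 28.7-fold lower. Acan (aggrecan) was at 490.0 and 29.4 CPM, Ecrg4 (a secreted peptide precursor) at 824 and 29.4 CPM, and Sox9, the chondrogenic transcription factor, at 242 and 58.9 CPM. Comp (cartilage oligomeric matrix protein) was at 944 and 142 CPM, with 62.1% of the EC-iDKO/Apoe-/- UMIs in 1 cell.

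Of the 9 chondrocyte markers measured 8 were lower and none higher, with a median of -2.73. In SMC Col2a1 was at 105 and 0.182 CPM, so the library difference was present there too. The macrophage cluster of the Apoe-/- library had Col2a1 in 9.72% of thinned cells, against 20.9% in cluster 8. When all cells with a UMI of Col2a1 or Ibsp were left out, the chondrocyte median was -1.29 over 4 measured members. Both genes are on the list, and they were present in 85 and 96 of 182 Apoe-/- members but in 0 of 147 EC-iDKO/Apoe-/- members. The filter thus removed Apoe-/- cells only, and a smaller difference follows in part from how it was set. Chondrocyte markers summed to 30378 CPM in cluster 10 of the Apoe-/- library and 421 CPM in that of the EC-iDKO/Apoe-/- library. In EC they summed to 2307 and 3497 CPM, of which Cytl1 alone gave 1817 and 3449 CPM. What part of the signal in cluster 8 came from other cells was not tested.

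**Figure D3:**
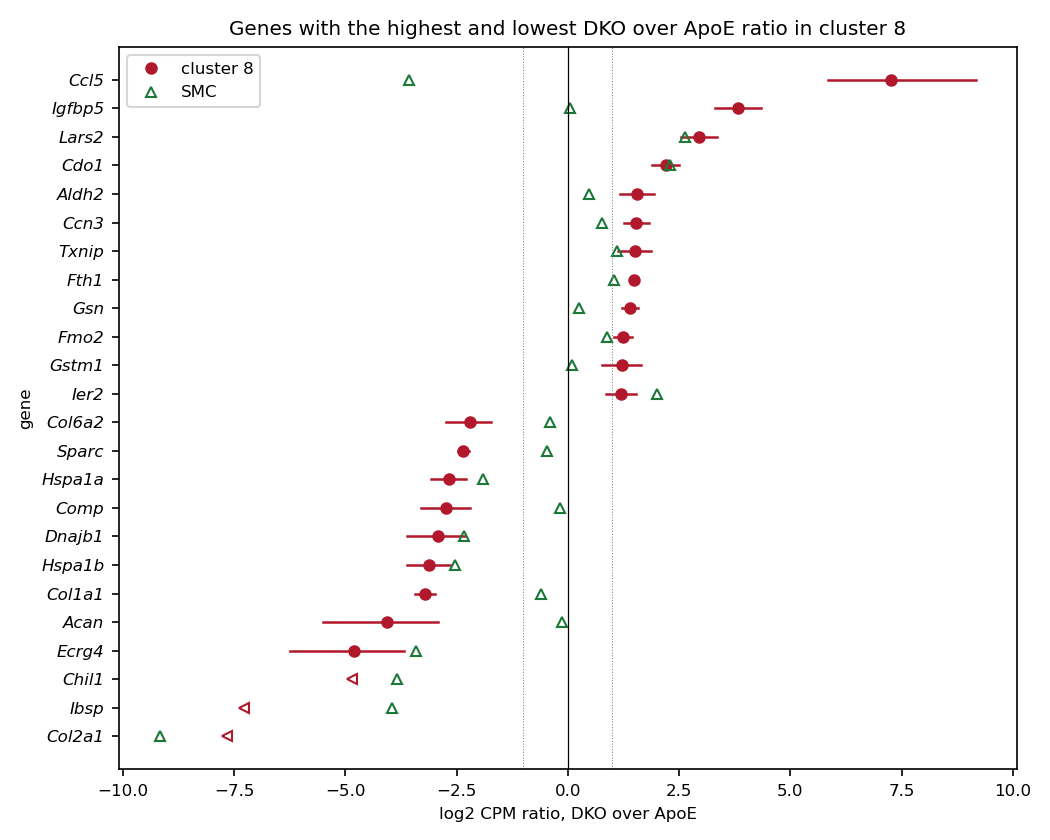
Log2 CPM ratio of EC-iDKO/Apoe-/- over Apoe-/- for the 12 highest and 12 lowest genes in cluster 8 (red circles with 95% counting intervals; open red triangles are bounds for genes with 0 UMIs in the EC-iDKO/Apoe-/- library) and the same genes in smooth muscle cells (green open triangles); dotted lines mark 2-fold. Col1a1 and Sparc lie at -3.21 and -2.35 in cluster 8 and at -0.60 and -0.48 in smooth muscle cells, whereas Hspa1a, Hspa1b and Dnajb1 are low in both.

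Of 11 heat shock genes 5 were lower by 2-fold in cluster 8 (median -0.90) and 4 in SMC (median -0.82), and the others were within 2-fold. Of all genes measured, 10.8% were lower in cluster 8 and 4.14% in SMC. Hspa1a and Hspa1b, near-identical copies of inducible HSP70 whose reads may be split uncertainly, were at 1723 and 269.8 CPM and at 1615 and 186 CPM in cluster 8, and at 1709 and 455 CPM and at 1535 and 266 CPM in SMC. Dnajb1, an HSP40 cochaperone, was at 784 and 103 CPM against 685 and 135 CPM. The heat shock element was found in promoter windows of 5 of 9 members with an entry (Dnaja1, Hspa1a, Hspa1b, Hspb1 and Hspe1), beside 6.79% of all windows. The windows of Hspa1a (chr17:34972157-34972406, reverse strand) and Hspa1b (chr17:34959239-34959488, reverse strand) are printed 5′ to 3′ to show how alike the copies are, with the element, 104 to 97 bases before the start in each, in capitals.
Hspa1a: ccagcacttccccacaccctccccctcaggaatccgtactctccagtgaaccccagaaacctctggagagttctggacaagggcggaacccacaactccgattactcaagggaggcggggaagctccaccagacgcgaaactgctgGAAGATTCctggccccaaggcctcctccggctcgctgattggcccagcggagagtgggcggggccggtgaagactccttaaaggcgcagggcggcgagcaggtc
Hspa1b: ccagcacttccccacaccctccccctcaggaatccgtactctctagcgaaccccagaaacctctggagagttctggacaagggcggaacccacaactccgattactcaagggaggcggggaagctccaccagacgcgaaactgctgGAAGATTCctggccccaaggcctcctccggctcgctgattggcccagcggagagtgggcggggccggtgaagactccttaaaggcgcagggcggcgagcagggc

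Inflammatory genes did not all shift the same way. Acute-phase and complement genes were higher for 2 and lower for 5 of 12 members (median -0.62), and after thinning to 500 UMIs per cell the median over 6 members was 0.26. Lcn2 was 1.48-fold higher (1.28 to 1.70) and C3 stood at 0.815-fold (0.657 to 1.00). Nfkbia, the feedback inhibitor of NF-kappaB, was at 874 and 1796 CPM in cluster 8, 2.05-fold higher (1.82 to 2.31), and at 376 and 1143 CPM in SMC. Serpina3n, a secreted serine protease inhibitor of the acute phase, was at 636 and 221 CPM, 2.88-fold lower (2.14 to 3.98), and at 22.8 and 8.21 CPM in SMC. C4b and Hp were lower at 193 and 34.3 CPM and at 119 and 29.4 CPM, with 71.4% and 50.0% of the EC-iDKO/Apoe-/- UMIs in 1 cell. Vcam1 was 1.38-fold higher (1.26 to 1.50).

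Of the chemokine list 2 of 9 members were higher and 1, Cxcl10, lower at 49.3 and 14.7 CPM (median 0.41). Il6, an inflammatory cytokine, was at 8.55 CPM (13 UMIs in 5 cells) in Apoe-/- and 54.0 CPM (11 UMIs in 8 cells) in EC-iDKO/Apoe-/- cells. Ccl7, a monocyte attractant, was at 24.3 and 68.7 CPM from 37 and 14 UMIs. Cxcl1 and Cxcl12 remained within 2-fold at ratios of 1.33 (1.05 to 1.67) and 0.623 (0.471 to 0.812).

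The kappaB letters were found in the promoter windows of 3 of 9 acute-phase members with an entry (Nfkbia, Serpina3g and Serpina3n), beside 1.41% of all windows. Nfkbia (chr12:55492648-55492897, reverse strand) and Serpina3n (chr12:104406458-104406707, forward strand) are printed because they lay on opposite sides of the genotype comparison while sharing the motif. Capitals mark it, 29 to 20 bases before the start in Nfkbia, where it reads on the other strand, and 171 to 162 bases before the start in Serpina3n.
Nfkbia: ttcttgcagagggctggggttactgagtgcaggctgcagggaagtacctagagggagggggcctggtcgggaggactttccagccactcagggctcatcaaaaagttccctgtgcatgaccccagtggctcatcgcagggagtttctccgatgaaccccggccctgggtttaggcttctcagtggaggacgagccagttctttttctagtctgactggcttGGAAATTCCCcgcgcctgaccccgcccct
Serpina3n: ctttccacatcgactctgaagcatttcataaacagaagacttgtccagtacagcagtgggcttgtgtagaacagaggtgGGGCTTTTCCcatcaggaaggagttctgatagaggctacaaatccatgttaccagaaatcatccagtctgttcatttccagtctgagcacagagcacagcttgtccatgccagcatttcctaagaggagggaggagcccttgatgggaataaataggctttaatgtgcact

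**Figure D4:**
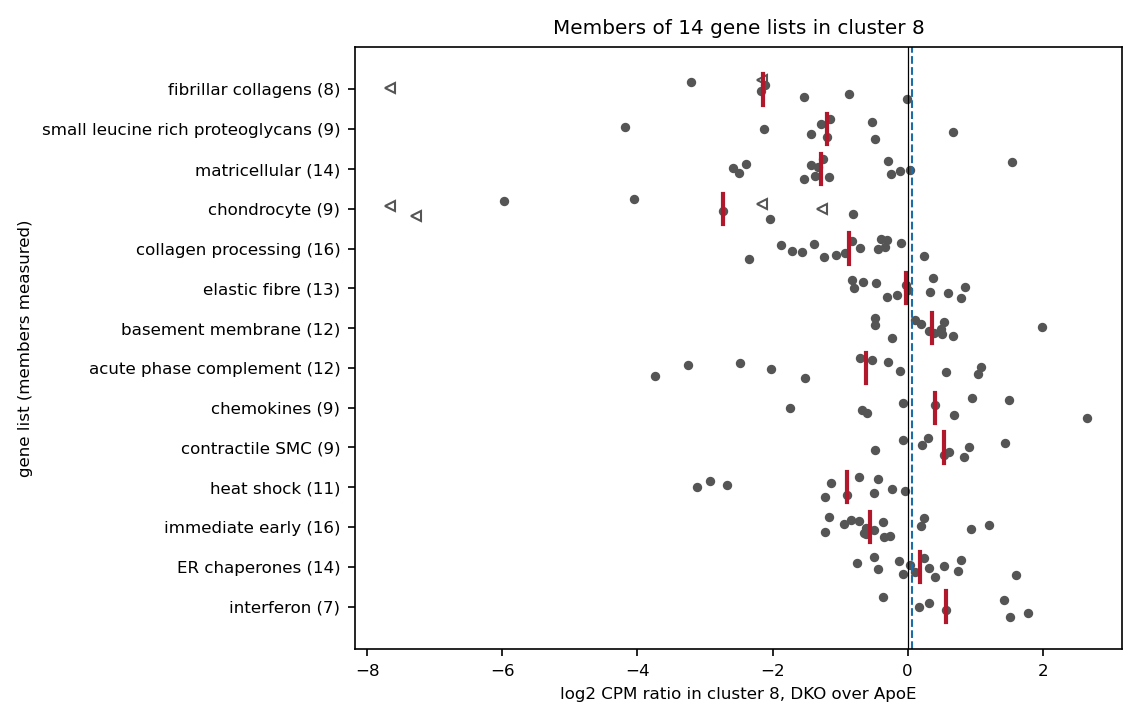
Log2 CPM ratio of EC-iDKO/Apoe-/- over Apoe-/- in cluster 8 for the members of 14 gene lists (points), with the median of each list (red bar) and of all genes measured (blue dashed line, 0.06). Fibrillar collagens, chondrocyte markers and matricellular genes have medians of -2.14, -2.73 and -1.29, and elastic fibre genes lie around 0.

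Among the genes higher in the EC-iDKO/Apoe-/- members, Igfbp5, an insulin-like growth factor binding protein, was at 34.2 CPM (52 UMIs in 19 cells) in Apoe-/- and 481 CPM (98 UMIs in 21 cells) in EC-iDKO/Apoe-/- cells, 14.1-fold higher (9.94 to 20.1), while SMC were at 82.4 and 84.8 CPM. Its log2 ratio was 3.49 after thinning to 500 UMIs. Gsn, the actin-severing protein gelsolin, was at 613 and 1614 CPM, with 28.0% of the EC-iDKO/Apoe-/- UMIs in 1 cell, and was within 2-fold after thinning (log2 ratio 0.83). Fth1, the ferritin heavy chain, was at 8877 and 24669 CPM in cluster 8 and at 7197 and 14802 CPM in SMC. Cdo1 (cysteine dioxygenase) was 4.58-fold higher (3.72 to 5.63) and Lars2 (mitochondrial leucyl-tRNA synthetase) 7.67-fold (5.81 to 10.1), with 4.90-fold and 6.23-fold in SMC.

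The detoxifying enzymes Aldh2, Fmo2 and Gstm1 were at 130.2 and 383, 543 and 1281, and 126 and 289 CPM, and Fmo2 was within 2-fold after thinning to 500 UMIs (log2 ratio 0.78). Txnip, the thioredoxin inhibitor, and Ier2, an immediate early gene, were 2.83-fold and 2.30-fold higher, with 2.13-fold and 3.98-fold in SMC. Ccl5 showed the highest ratio, but 79 of its 82 EC-iDKO/Apoe-/- UMIs were in 1 cell, and it is a chemokine of T cells and macrophages. With the top cell of each gene left out of the library where that gene was higher, 20 of the 31 higher and 42 of the 43 lower genes still passed 2-fold. The other library was kept whole.

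Contractile genes, which macrophages also held, were within 2-fold for 8 of 9 members, with 1 higher, Des (desmin) at 14.5 and 39.2 CPM, and a median of 0.54, against -0.01 in SMC. The list median was -0.12 with cells thinned to 500 UMIs. Per cell at that depth, however, the contractile median was 6 UMIs in Apoe-/- and 10 in EC-iDKO/Apoe-/- members, and 4 and 17 in macrophages. Tagln, at 3745 and 6692 CPM, and Myh11 moved together with the macrophage cluster, where they stood at 3283 and 13561 CPM and at 1199 and 3462 CPM. Transcription factors tied to smooth muscle modulation were lower for 5 of 13 and higher for none (median -0.69). Klf4, which represses contractile genes, was at 596 and 383 CPM, and Runx1, a factor of blood and stromal cells, at 195 and 88.3 CPM from 296 and 18 UMIs. Epn1 and Epn2 were at 35.5 and 24.5 CPM and at 67.1 and 103 CPM in cluster 8, and at 33.7 and 7.95 CPM and 74.9 and 99.3 CPM in EC. Which exons were deleted was not known here, and 3′ tags need not read them, so these levels do not check the deletion. In EC a count of 0 allows up to 11.2 and 11.9 CPM, so the Epn1 levels there rest on few UMIs.

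Within cluster 8, marker levels varied with cell depth. In the Apoe-/- library, the 91 cells under the median depth and the 91 at or over it had Timp1 at 332 and 1448 CPM, Vcam1 at 619 and 2454 CPM, Mgp at 15589 and 38756 CPM and Dcn at 5614 and 9343 CPM. Col2a1 ran the other way, at 6420 and 2413 CPM, as did Acta2, at 8095 and 5700.2 CPM. In the EC-iDKO/Apoe-/- library, with 73 and 74 cells, Timp1 was at 1880 and 2224 CPM and Vcam1 at 1584 and 3445 CPM. Dcn ran the other way there, at 4309 and 3419 CPM, as did Lum, at 1922 and 1253 CPM, and Spp1, at 5576 and 3834 CPM, whereas in the Apoe-/- library Lum was at 5290.4 and 6314 CPM and Spp1 at 3060 and 5388 CPM. Timp1 and Lcn2 occurred together in 82 of 182 Apoe-/- and 39 of 147 EC-iDKO/Apoe-/- cells before thinning. Deep members weighed most in the summed levels, and a share of cells is therefore given beside the main markers.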

How the data were processed

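Droplet 3′ single-cell RNA-seq of 2 mouse aorta libraries, 1 for each genotype, was used. The deposited table holds counts, whole-number UMIs per cell and gene, made with Cell Ranger and Seurat on mm10, per the submitters' processing notes, and their versions are not given in the sources used here. Besides, the authors deposited a fraction of mitochondrial UMIs, up to 20.0% as a percentage, and cell class and cluster numbers, of another kind ("other"), are those the authors deposited. The table had 10345 entries and 14714 genes; 2428 entries were identical second copies of Apoe-/- barcodes, and 7917 barcodes were kept (2428 and 5489). No further cell filter was applied, and doublets were not removed.

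SMC were the deposited smooth muscle class without cluster 15, EC was cluster 9 of the endothelial class, and cluster 13 was the macrophage cluster. UMIs were summed per library and population to CPM. Ratios carry exact conditional binomial intervals and shares Clopper-Pearson intervals at 95%, for counting error only. A ratio against 0 used a floor of 3 UMIs. List members needed 20 UMIs over the populations compared. Named genes were the 12 highest and 12 lowest past 2-fold between genotypes and against SMC and cluster 10, and the 8 highest and 8 lowest against EC, ranked in both libraries where populations were compared, without mitochondrial, ribosomal, haemoglobin, immunoglobulin, predicted or sex-linked genes. Up to 6 members of each described list with the largest ratios were also eligible, and a few more list members within 2-fold were named after their values were seen. Some eligible genes are not reported here. The members and lists were chosen with earlier results of these data known. Python 3.11.15, numpy 2.4.6, pandas 2.3.3, SciPy 1.17.1 and matplotlib 3.10.9 were used, and the ratio code was tested on simulated data. Alternatives covered depth thinning, cell and expression filters, scaling and left-out cells.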

Additional observations from a re-analysis of the deposited data

Results flagged for a closer look

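Ccl5, a chemokine of T cells and macrophages, went in opposite directions in cluster 8 and in smooth muscle cells: the EC-iDKO/Apoe-/- over Apoe-/- ratio was 153 (57.5 to 575) in cluster 8, from 2.63 and 402 CPM, and 0.0844 in SMC, from 4.32 and 0.365 CPM. The difference between the populations was not tested. In cluster 8, 96.3% of the EC-iDKO/Apoe-/- UMIs were in 1 cell, and the level without that cell was 15.9 CPM. The macrophage cluster held 128 and 164 CPM.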

How the results depend on the processing

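No paired analysis was possible because each genotype had 1 library. Of the 154 values that answer a comparison, recomputed under the alternatives, 119 stayed the same and 35 moved. Counts and list medians were called the same within 1.5 times, and shares of cells within their 95% interval. The count of genes past 2-fold between genotypes, 74, was 126 and 121 with cells thinned to 500 and 1000 UMIs, 38 at a mean of at least 500 CPM, 150 at 100 CPM and 5774 with no filter. Counts for cluster 8 over SMC (159 in Apoe-/- and 98 in EC-iDKO/Apoe-/-) were 71 and 42 at 500 CPM, 304 and 178 at 100 CPM and 4110 and 6253 with no filter. Counts over EC (116 and 75) were 54 and 22, 234 and 183, and 5415 and 4265. Those over cluster 10 (54 and 63) were 27 and 15, 113 and 171, and 3539 and 5237. In the EC-iDKO/Apoe-/- library, keeping cells that reached 1000 UMIs with a mitochondrial share under 10% gave 113 over EC and 180 over cluster 10, and thinning to 1000 UMIs gave 120 and 242. Without a filter, genes with a few UMIs enter.

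List medians that moved with thinning to 500 UMIs were those of the 6 markers (-0.043 over 4 measured members), contractile genes (-0.12), chondrocyte genes (-4.89) and acute-phase genes (0.26); the 6 markers gave -0.085 at 1000 UMIs, again over 4 members. Fewer members were measured at these depths. The chondrocyte median was -3.39 with members of at least 100 UMIs. Of the alternatives chosen after seeing the data, leaving out the 10 deepest cells gave a marker median of -1.04 (-1.71 with all cells), and leaving out cells with a UMI of Col2a1 or Ibsp gave a chondrocyte median of -1.29. The latter filter used members of the list itself and removed cells of the Apoe-/- library only. The smaller log2 ratio of C3 over cluster 10 was reversed at 1000 UMIs, to -0.24, a depth that 11.1% of the 90 EC-iDKO/Apoe-/- cells of cluster 10 reached; the cause was not tested. Among single genes, 511 values were the same, 132 moved and 1 was reversed. The EC-iDKO/Apoe-/- depth limits low genes: 0 UMIs allow up to 14.7 CPM.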

Other observations

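Further gene groups of cluster 8 were read between genotypes. Interferon genes were higher in the EC-iDKO/Apoe-/- library for 3 of 7 measured members and lower for none (median log2 ratio 0.57), beside 8.31% of all measured genes higher and a median of 0.06. In SMC 4 of 10 were higher (median 0.69), beside 4.01% of all measured genes. Irf1, an interferon-induced transcription factor, was at 77.0 and 265 CPM in cluster 8 and at 59.2 and 207 CPM in SMC. Chaperones of the endoplasmic reticulum were higher for 1 of 14, Sdf2l1, and lower for none, with Hspa5, the main one, at 1072 and 1550.4 CPM. Genes of TGF-beta signalling had 1 higher and 1 lower of 16 (median -0.14), the lower one being Tgfbi, a secreted target, at 75 and 9.81 CPM. Clathrin and epsin genes were higher for 2 of 11, Cltb and Eps15, and lower for none (median 0.12).

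Mki67, a marker of dividing cells, was at 20.4 and 93.2 CPM in cluster 8, and Top2a at 34.9 and 128 CPM. A UMI of either was present in 17 of 182 Apoe-/- cells and 4 of 147 EC-iDKO/Apoe-/- cells, with median depths of 11759 and 6792 UMIs, so the higher summed level came from fewer cells.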
